A study of Mus musculus with 4 samples.

Results

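Mup10, Mup11 and Mup17 are 3 members of the major urinary protein (Mup) family of mouse liver. They were taken by symbol from the 19465 genes of the count matrices, which held 9 Mup genes in all. They were chosen by measured values of these same data: their levels in the healthy section against the 3 sections of carbon tetrachloride (CCl4) treated livers, their profile across the liver lobule, and their distance from collagen-rich spots. Those values are given as a description, with no test. The effect of Hk2 deletion and the other genes were not part of that choice and were tested. The gene lists were set with earlier results of these data known, so calls within them are no independent support.

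Transcripts were counted on barcoded Visium spots laid over FFPE (formalin-fixed, paraffin-embedded) liver sections of 4 mice. The mice were labelled male and aged 5 months, and all carried floxed Hk2 (HK2fl/fl), the gene of the glycolytic enzyme hexokinase 2, and received tamoxifen at 75 mg/kg for 5 days. The healthy group was 1 HK2fl/fl mouse given olive oil. The fibrotic group was 2 HK2fl/fl mice given CCl4, a hepatotoxin that injures pericentral hepatocytes, at 1 µL/g, 2 times a week. The sources differ on the length: the design text gives 6 weeks, and the sample protocol 4 or 6 weeks. The Hk2-deleted fibrotic group was 1 CCl4-treated mouse that also carried the tamoxifen-inducible Cre (PDGFRBcreERT2/Hk2fl/fl), which acts in Pdgfrb-expressing cells such as hepatic stellate cells, and not by design in hepatocytes, the source of Mup transcripts.

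Major urinary proteins are small lipocalins. Hepatocytes secrete them into blood, they pass into urine, and there they bind and slowly release volatile pheromones. Their genes lie side by side in a large cluster of recent duplicates, and liver expression is known to be higher in males than in females and to depend on pulsatile growth hormone acting through the growth hormone receptor and the transcription factor STAT5B.

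In the RefSeq table of GRCm38.p6 (mm10), the cluster held 22 protein-coding Mup genes on chromosome 4. Mup10 (ENSMUSG00000078680) spans chr4:60578260-60582276, Mup11 (ENSMUSG00000073834) spans chr4:60658466-60662432 and Mup17 (ENSMUSG00000096688) spans chr4:61591929-61595865. All 3 had a window in the RefSeq promoter table, on the minus strand. The stretches below show how alike the copies are just upstream of genes whose levels moved by very different amounts. They are 127 bases long, 5′ to 3′, from chr4:60582279-60582405, chr4:60662490-60662616 and chr4:61595950-61596076, and capitals mark the 3 positions at which the copies differ.
Mup10: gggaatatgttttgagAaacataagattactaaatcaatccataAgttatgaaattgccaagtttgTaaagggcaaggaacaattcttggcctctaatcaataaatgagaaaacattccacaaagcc
Mup11: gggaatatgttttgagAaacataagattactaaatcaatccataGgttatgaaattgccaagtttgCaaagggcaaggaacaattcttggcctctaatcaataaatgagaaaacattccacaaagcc
Mup17: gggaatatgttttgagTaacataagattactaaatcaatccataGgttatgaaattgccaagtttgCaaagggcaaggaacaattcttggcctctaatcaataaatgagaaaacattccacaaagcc

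Mup11 and Mup17 were identical at 126 of 127 positions (99.2%), Mup10 and Mup11 at 125 (98.4%), and Mup10 and Mup17 at 124 (97.6%). Further downstream each copy holds the letters TATATAA, which resemble the core promoter box of that kind, in capitals in these 30-base stretches from chr4:60582171-60582200, chr4:60662383-60662412 and chr4:61595843-61595872, which also show that Mup11 and Mup17 are the same there.
Mup10: gctgaactcagagatTATATAAggacaagc
Mup11: gctgaacccagagagTATATAAggacaagc
Mup17: gctgaacccagagagTATATAAggacaagc

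On either strand, TATATAA occurred in 3.04% of the 32851 promoter windows of the RefSeq table, over the 250 bases before the start that the table uses, and in 2 of 3 Mup windows, since in Mup11 the letters cross the end of those bases. The table's starts lie inside the annotated gene spans given above, and so do the TATATAA letters of all 3 copies. The letters TTCNNNGAA, the general STAT motif, occurred in 7.02% of windows and in 0 of 3 Mup windows. A match is a description of the letters, and no match says only that they are not in this window. With copies this alike, reads of one gene can be counted for another, the probe set is not given in the sources used here, and the split of counts between Mup genes is uncertain for that reason. Levels are therefore compared between sections. Where shares of UMIs between 2 copies are given, they carry this limit.

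The sections held 2577 to 4134 spots, 13640 in all, and 40585039 to 67479047 UMIs (counted molecules), with medians of 13665 to 15588 UMIs per spot. Fibrotic replicate 1, a library labelled male, had the Y-linked transcripts Eif2s3y at 0.578 CPM and Ddx3y at 0.415 CPM (UMIs of a gene per 1000000 UMIs of the section), where the other 3 sections had 62.1 to 69.9 and 47.0 to 52.4 CPM. It goes against its label. Fitted values of Mup10, Mup11 and Mup17 and calls in the growth hormone and sex-biased lists are given with and without it. Other results are given only with it. Among them are calls for cell type markers, plasma proteins, Bcl6 and Cish, calls on collagen-high spots, and the zone tests of Mup3 and Mup20. Albumin, the defining hepatocyte transcript, was at 68850 to 135176 CPM in all sections. A background of 19 genes, set as genes of other organs, reached at most 1.02 CPM (Gfap, fibrotic replicate 1). Gfap was the highest of them in every section, and its source in these livers was not tested. The background medians were 0 to 0.0246 CPM. In sums over spots, fewer cells of a type and less RNA per cell cannot be told apart.

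Mup11 differed most between the healthy and the CCl4 sections. It was measured at 798 CPM in the healthy section (95% interval 791 to 806, 43130 UMIs). In the CCl4 sections it stood at 1.51 CPM in fibrotic replicate 1 (1.23 to 1.83, 102 UMIs), 2.93 CPM in fibrotic replicate 2 (2.43 to 3.51, 119 UMIs) and 1.44 CPM in the Hk2-deleted section (1.17 to 1.76, 94 UMIs). The healthy section was thus 528, 272 and 553 times higher. The highest background gene of those CCl4 sections, Gfap each time, was at 1.02, 0.296 and 0.629 CPM in the same order. The background medians there were 0.0148, 0.0246 and 0.0153 CPM. The fibrotic mean was 2.22 ± 1.00 CPM (SD, n = 2).

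Mup17 differed far less. It was at 1083 CPM in the healthy section (1075 to 1092, 58533 UMIs), 236 CPM in fibrotic replicate 1, 504 CPM in fibrotic replicate 2 and 290 CPM in the Hk2-deleted section. The healthy section was 4.58, 2.15 and 3.73 times higher, and the fibrotic mean was 370 ± 189 CPM (SD, n = 2). Mup10 followed Mup17 closely, at 286 CPM in the healthy section (282 to 291, 15457 UMIs), 64.8 CPM in fibrotic replicate 1, 152 CPM in fibrotic replicate 2 and 79.7 CPM in the Hk2-deleted section. The folds were 4.41, 1.88 and 3.59, and the fibrotic mean was 108 ± 61.5 CPM (SD, n = 2). For all 3 genes the healthy section was above every CCl4 section, and fibrotic replicate 2 was the highest of the CCl4 sections.

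**Figure D1:**
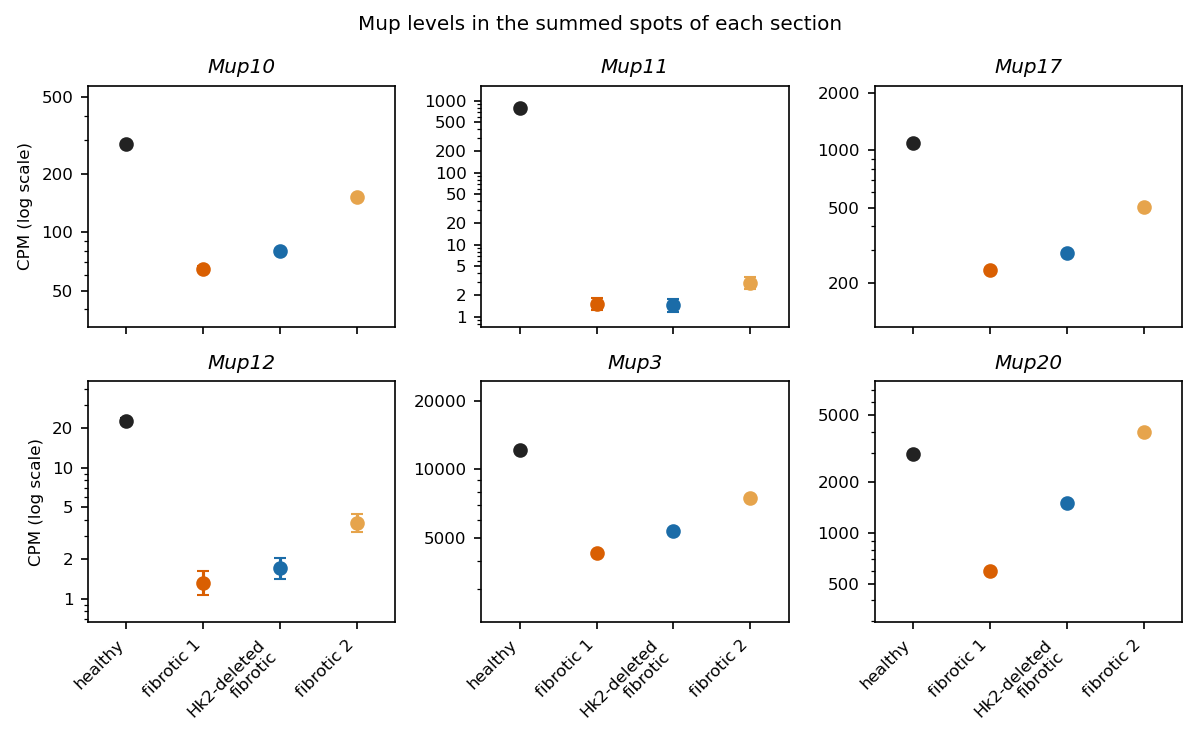
Levels of Mup10, Mup11, Mup17 and 3 other Mup genes in the summed spots of each section, in CPM on a log axis that differs between panels; points are sections and bars are exact 95% Poisson intervals, mostly smaller than the points. Mup11 is at 798 CPM in the healthy section and between 1.44 and 2.93 CPM in the others, the healthy section is 1.88 to 4.58 times higher for Mup10 and Mup17, and Mup20 in fibrotic replicate 2 lies above the healthy section.

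In the fit over all genes, the log2 difference of fibrotic from healthy sections was -8.83 ± 0.41 (SE) for Mup11, the lowest of 14125 genes, against -1.84 ± 0.41 for Mup17 (rank 64 from the lowest) and -1.69 ± 0.36 for Mup10 (rank 75). Since the genes were chosen for this contrast, no p is given; 4.01% of all genes were called lower in it and 9.64% higher. Without fibrotic replicate 1, the values were -8.32, -1.34 and -1.15, and without fibrotic replicate 2 they were -9.49, -2.64 and -2.58, in the same order. When the other CCl4 pair, both rich in Y-linked transcripts, replaced the fibrotic pair, they were -8.84, -1.74 and -1.59. The Hk2-deleted section alone gave -9.50 ± 0.58, -2.29 ± 0.52 and -2.23 ± 0.45 against the same healthy section. Scaling by library size alone moved the median gene up by 0.34 and gave -8.52, -1.55 and -1.40.

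Ratios between copies need no scaling, but they rest on the split of counts between copies, which is uncertain here. The intervals do not cover that uncertainty. Mup10 made up 20.9% of the UMIs of Mup10 and Mup17 together in the healthy section (exact interval 20.6 to 21.2%), 21.5% in fibrotic replicate 1 (20.9 to 22.1%), 21.5% in the Hk2-deleted section (21.0 to 22.1%) and 23.2% in fibrotic replicate 2 (22.7 to 23.7%). The proportion of this pair stayed between these values while both levels differed by up to 4.58 times, with the interval of fibrotic replicate 2 above the other 3. Mup11 made up 42.4% of the UMIs of Mup11 and Mup17 in the healthy section (42.1 to 42.7%) but 0.635%, 0.579% and 0.495% in fibrotic replicates 1 and 2 and the Hk2-deleted section. The 3 CCl4 intervals for Mup11 overlap and together span 0.400 to 0.770%. The Mup11 share was thus alike in sections whose Mup17 levels differed by up to 2.13 times. Whether some of these Mup11 UMIs came from other copies was not tested.

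Counted by spot, at least 1 Mup11 UMI was found in 99.7% of the 3064 healthy spots, with a median of 13 UMIs. The shares were 2.42% of 4134 spots in fibrotic replicate 1, 4.38% of 2577 in fibrotic replicate 2 and 2.43% of 3865 in the Hk2-deleted section, where no spot held more than 2 Mup11 UMIs. After thinning each spot to 5000 UMIs, which left out 9 to 37 shallower spots per section, the shares were 95.5% in the healthy section and 0.757%, 1.64% and 0.834% in the others, so the gap was as wide at equal depth. In the authors' deposited table, Moran's I, which is near 0 for a gene without spatial pattern, was 0.391 for Mup11 in the healthy section. That deposited table of the authors gave -0.011 to 0.006 for Mup11 in the CCl4 sections, at the level of the median gene. For Mup17 the authors' deposited table gave 0.396 in the healthy section, 0.158 and 0.321 in fibrotic replicates 1 and 2 and 0.153 in the Hk2-deleted section.

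**Figure D2:**
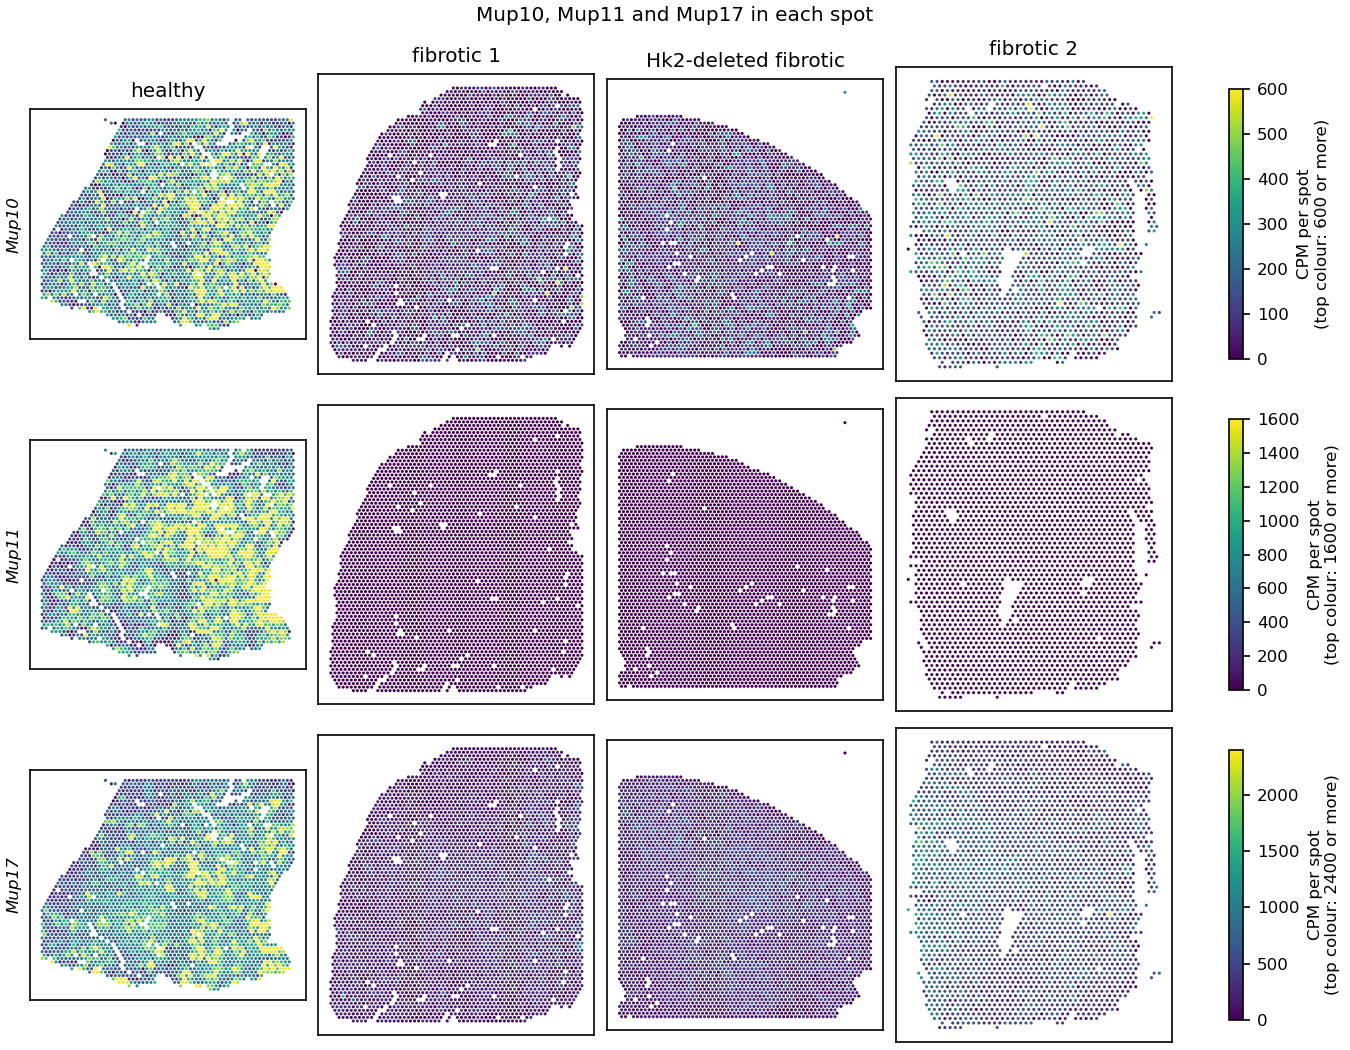
Level of Mup10, Mup11 and Mup17 in each Visium spot of the 4 sections, as CPM of the spot's own UMIs with 1 colour scale per gene. The healthy section shows patches of high Mup11 and Mup17, and Mup11 is dark across all 3 CCl4 sections, where at most 4.38% of spots hold a UMI of it.

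Of the 6 other Mup genes in the matrices, 4 passed the filter on low counts and 2 of these were lower in fibrotic than in healthy sections, where 4.01% of all genes were. Mup12, which lies next to Mup11 in the cluster, was at 22.8 CPM in the healthy section, 1.32 and 3.77 CPM in fibrotic replicates 1 and 2 and 1.70 CPM in the Hk2-deleted section. Its log2 difference was -3.50 ± 0.37 (edgeR adjusted p = 2.38e-06). Mup18 was low throughout, at 1.48 CPM against 0.133, 0.468 and 0.338 CPM, and fell by 2.69 ± 0.67 (edgeR adjusted p = 0.00969). Both calls held when the pair of sections with Y-linked transcripts was set against healthy (edgeR adjusted p = 0.0061 and 0.0377). In the Hk2-deleted section alone, where 9.67% of all genes were called in either direction, only Mup12 was called (-4.13 ± 0.49, edgeR adjusted p = 1.36e-05; Mup18 -2.51 ± 0.80, edgeR adjusted p = 0.0531).

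The abundant and more distant family members, Mup3 and Mup20, were not called. Their SEs were wide, so the missing calls do not show unchanged levels. For Mup3 the healthy section was 2.82, 1.61 and 2.25 times higher than fibrotic replicates 1 and 2 and the Hk2-deleted section. Mup3 was at 12143 CPM in the healthy section, 4301 and 7522 CPM in fibrotic replicates 1 and 2 and 5400 CPM in the Hk2-deleted section (log2 -1.34 ± 0.73, edgeR adjusted p = 0.245). Mup20, whose protein is the pheromone darcin, was at 2940 CPM in the healthy section, 593 and 3969 CPM in fibrotic replicates 1 and 2 and 1519 CPM in the Hk2-deleted section (log2 -0.63 ± 0.73, edgeR adjusted p = 0.621). Mup20 in fibrotic replicate 2 was above healthy, and without fibrotic replicate 1 its difference turned to 0.20. Mup4 and Mup6 had at most 0.130 CPM in any section and were not tested.

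The liver lobule runs from the portal to the central vein, and hepatocytes change their gene programme along it. Spots were ranked within each section by the mean z of 9 pericentral landmark genes minus that of 12 periportal ones, none a Mup gene, and cut into 3 equal classes (periportal, middle and pericentral) and into 10 equal steps. The pericentral enzyme Cyp2e1, a landmark itself, was 3.10 times higher in the pericentral than in the periportal class of the healthy section and 2.67 to 3.59 times higher in the CCl4 sections. Since Cyp2e1 is part of the score, this gives its spread between the classes and is no separate check of the axis. Whether the axis is the same in healthy and CCl4 sections was not tested.

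In the healthy section all 3 genes were highest toward the central vein. Mup17 went up at every step, from 738 CPM in the most periportal step 1 to 1861 CPM in the most pericentral step 10. Mup11 went from 357 CPM to a peak of 1219 CPM in step 8 and stood at 995 CPM in step 10. Mup10 went from 209 CPM to 407 CPM in step 9 and 373 CPM in step 10. The ratio of the pericentral to the periportal class was 2.00 for Mup17, 2.19 for Mup11 and 1.60 for Mup10.

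In the CCl4 sections the slope was flat or ran the other way. The same ratio for Mup10 was 0.663 in fibrotic replicate 1, 0.821 in fibrotic replicate 2 and 0.799 in the Hk2-deleted section, and for Mup17 it was 0.735, 0.929 and 0.974. In all 3 sections step 10 held the lowest level of both genes, with Mup17 at 169, 420 and 240 CPM and Mup10 at 42.7, 99.2 and 59.7 CPM. The healthy section stood above 1 and all CCl4 sections below it for both genes. For Mup17 in the Hk2-deleted section, the interval of the log2 ratio (-0.090 to 0.014) took in 0. Over all 4 sections together, 5.79% of all genes were called higher toward the central vein and 5.07% lower (10.9% in either direction). The fitted pericentral log2 difference there was -0.33 ± 0.21 (SE) for Mup10, -0.11 ± 0.23 for Mup17 and 0.63 ± 0.24 for Mup11, with no test. These values average the healthy and the CCl4 sections, whose CPM ratios lay on opposite sides of 1 for Mup10 and Mup17. With the summed UMIs of 36 plasma protein genes as the denominator, in place of all UMIs, Mup10 ratios stayed below 1 (0.797, 0.945 and 0.903) but Mup17 ratios were 0.885, 1.07 and 1.10, so for Mup17 the side of 1 depends on the denominator in the latter pair of sections. The healthy ratio was 2.39 for Mup17 on that scale.

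For Mup11 the CCl4 sections held too few UMIs for a firm profile. Its ratio was 0.689, 1.81 and 1.46 in fibrotic replicates 1 and 2 and the Hk2-deleted section, and only the log2 interval of fibrotic replicate 2 (0.15 to 1.58) left out 0. The highest of the 10 steps of any CCl4 section held 4.55 CPM of Mup11.

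**Figure D3:**
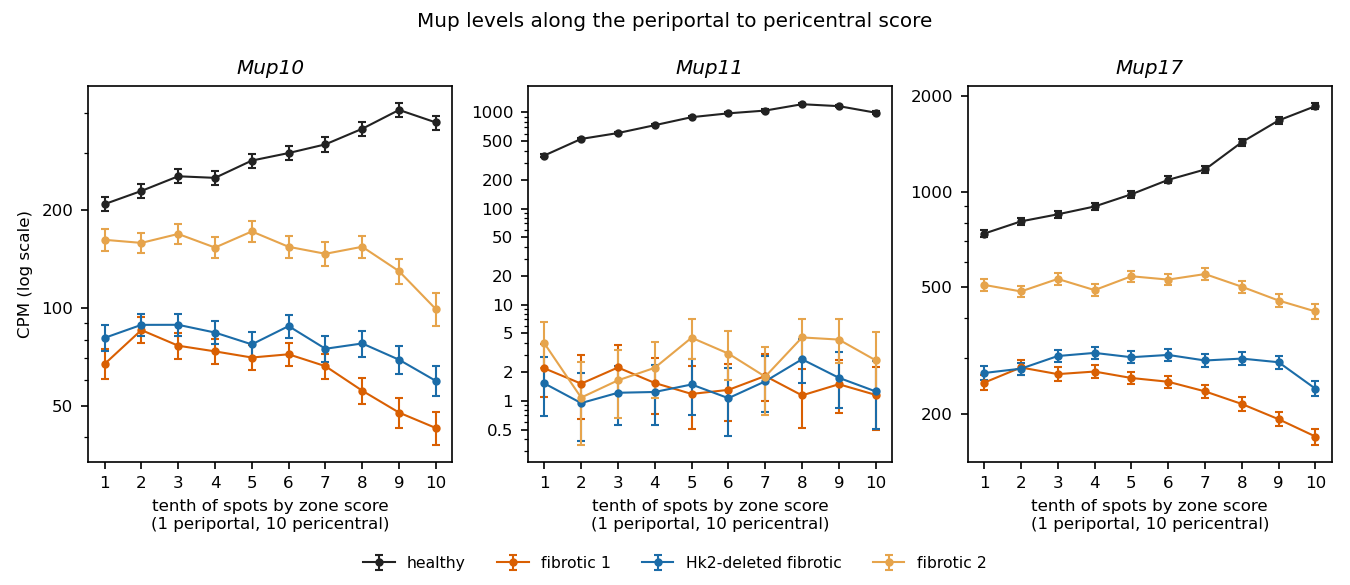
Levels of Mup10, Mup11 and Mup17 in 10 equal steps of spots ordered by zone score, from periportal (1) to pericentral (10), in CPM on log axes; lines are sections and bars are exact 95% Poisson intervals. The healthy lines rise to the right, from 738 to 1861 CPM for Mup17, while the lines of the CCl4 sections are lowest in step 10 for Mup10 and Mup17.

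The gap to the healthy section was accordingly wider near the central vein. In the periportal class Mup17 was 3.02, 1.59 and 2.81 times higher in the healthy section than in fibrotic replicates 1 and 2 and the Hk2-deleted section, and in the pericentral class 8.21, 3.42 and 5.77 times. The periportal folds of Mup10 were 3.04, 1.45 and 2.69, and the pericentral folds 7.32, 2.82 and 5.38. Mup11 was at least 252 times higher in the healthy section in every class. The difference in log2 zone contrast between CCl4 and healthy sections was -1.34 ± 0.13 (SE) for Mup17, -1.21 ± 0.11 for Mup10 and -0.96 ± 0.26 for Mup11, described with no test. Without fibrotic replicate 1 these were -1.21, -1.12 and -0.57, the last resting most on that section. In the same contrast 10.5% of all genes were called lower and 7.96% higher (18.5% in either direction).

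Mup3 and Mup20 were arranged in another way. Mup3 was periportal in every section, with pericentral to periportal ratios of 0.635 in the healthy section, 0.460 and 0.535 in fibrotic replicates 1 and 2 and 0.488 in the Hk2-deleted section; its zone contrast was lower in the CCl4 sections by 0.51 ± 0.10 on the log2 scale (edgeR adjusted p = 0.00473). That call was lost without collagen-high spots (log2 -0.34, edgeR adjusted p = 0.0626). Mup20 had a ratio of 0.756 in the healthy section but 1.24, 1.78 and 1.23 in the CCl4 sections, a log2 difference of 0.75 ± 0.16 (edgeR adjusted p = 0.00626). Mup20 was thus relatively more pericentral in the sections where Mup10 and Mup17 were relatively less so.

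Collagen-high spots were the top 10% of spots of a section by the share of Col1a1, Col1a2 and Col3a1, genes of the fibrillar collagens of scar tissue. In the CCl4 sections 69.2 to 79.1% of them lay in the pericentral class, against 40.2% in the healthy section. Mup17 stood at 145 CPM on them in fibrotic replicate 1, 422 CPM in fibrotic replicate 2 and 223 CPM in the Hk2-deleted section, and the ratios to all other spots were 0.584, 0.825 and 0.752. Mup10 stood at 41.1, 105 and 57.6 CPM on them, with ratios of 0.606, 0.673 and 0.703. In the healthy section, where these spots carry little collagen, the ratios were 0.951 for Mup17, 0.985 for Mup10 and 0.940 for Mup11.

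The fitted log2 difference of collagen-high from other spots was -0.92 ± 0.06 (SE) for Mup10, -0.81 ± 0.08 for Mup17 and -0.85 ± 0.31 for Mup11, with section as a block and no test. The plasma protein genes were lower there too: 36 of 36 were called lower by edgeR, where 22% of all genes were (43.7% in either direction), with a median of -0.63 against 0.015 over all genes. Not every hepatocyte transcript had a lower CPM there. The CPM ratio of Cyp2e1 on collagen-high to other spots was 1.23 and 1.44 in fibrotic replicates 1 and 2 and 1.46 in the Hk2-deleted section. Mup20 had CPM ratios of 1.03, 1.27 and 0.883, but in the fit it was called lower (log2 -0.25 ± 0.08, edgeR adjusted p = 0.0232). Mup3 was called lower too (log2 -1.20 ± 0.07, edgeR adjusted p = 3.85e-08). Many markers of other cell types were higher on these spots, with 12 of 12 stellate cell, 11 of 14 leukocyte, 6 of 10 cholangiocyte and 7 of 14 macrophage genes called higher by edgeR, where 21.7% of all genes were, while 7 of 12 endothelial, 2 macrophage and 1 cholangiocyte genes were lower. Their part in the lower Mup levels was not tested. Library-size scaling alone moved the median gene up by 0.34 and gave -0.60, -0.49 and -0.53 for the 3 Mup genes. Relative to plasma protein UMIs the values were -0.30, -0.18 and -0.23, all nearer 0 than on either other scale. Within the pericentral class alone they were -0.70, -0.65 and -0.55.

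Away from collagen-high spots the level changed little. Mup17 at 1 grid step was at 230 CPM in fibrotic replicate 1, 508 CPM in fibrotic replicate 2 and 291 CPM in the Hk2-deleted section, and at 4 or more steps at 259, 493 and 286 CPM. Of the CCl4 sections, only in fibrotic replicate 1 did the interval of the log2 ratio of these (-0.17, from -0.24 to -0.10) leave out 0, and the healthy section had -0.13 (-0.16 to -0.09). At 3 or more steps from any collagen-high spot, Mup17 was still 4.33, 2.23 and 3.86 times higher in the healthy section than in fibrotic replicates 1 and 2 and the Hk2-deleted section, Mup10 3.72, 1.75 and 3.36 times, and Mup11 453, 291 and 496 times. The lower levels in the CCl4 sections were thus also measured away from the collagen-richest spots of each section and their neighbours. Such spots were not low in collagen. At 4 or more steps the 3 collagen genes summed to 936 and 390 CPM in fibrotic replicates 1 and 2 and 436 CPM in the Hk2-deleted section. In the healthy section they summed to 33.3 CPM there and to 255 CPM on its own collagen-high spots.

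**Figure D4:**
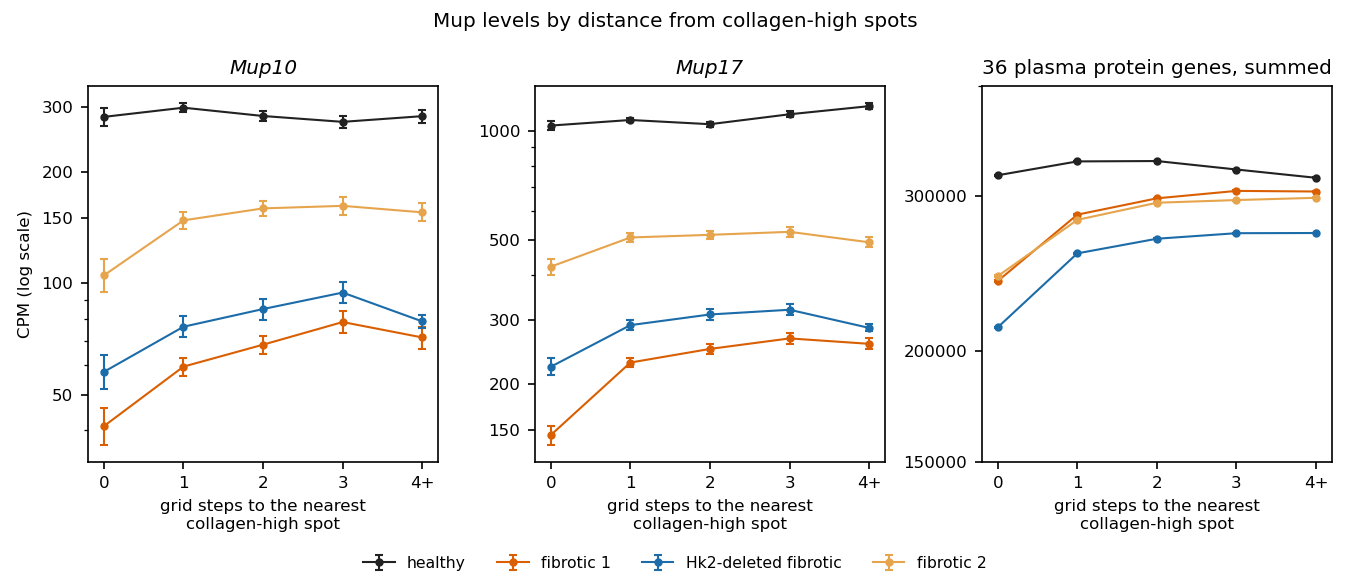
Levels of Mup10, Mup17 and the sum of 36 plasma protein genes by grid steps to the nearest collagen-high spot (0 is such a spot, 4+ is 4 or more), in CPM on log axes that differ between panels; lines are sections and bars are exact 95% Poisson intervals. In the CCl4 sections all 3 panels dip at 0 steps, for Mup17 to between 145 and 422 CPM, and the healthy lines stay nearly level.

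Hk2 deletion was the contrast not used to choose the genes. Hk2 itself was at 1.85 CPM in the healthy section, 4.88 and 3.94 CPM in fibrotic replicates 1 and 2 and 3.50 CPM in the Hk2-deleted section, a log2 difference from fibrotic of -0.38 ± 0.33 (edgeR adjusted p = 1.00). A whole section sums all its cells, so it does not isolate the cells in which Cre acts. The log2 differences of the Hk2-deleted from the fibrotic sections were -0.54 ± 0.38 for Mup10, -0.67 ± 0.40 for Mup11 and -0.44 ± 0.44 for Mup17 (edgeR adjusted p = 1.00 each). Of the 3 genes 0 were called, as were 0 of the 4 other Mup genes tested, where 0.227% of all 14125 genes were called. The Hk2-deleted section lay between the fibrotic replicates for Mup10 and Mup17. Against fibrotic replicate 2 alone the values were -1.08, -1.17 and -0.95, and against fibrotic replicate 1 alone 0.35, -0.02 and 0.34. The sign for Mup10 and Mup17 thus rests on which fibrotic section is used, and so does the size for Mup11.

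Mup genes are growth hormone targets, and 20 genes of growth hormone and STAT5 signalling were read beside them. In the fibrotic against healthy contrast 0 of 20 were called higher and 3 lower, where 9.64% of all genes were higher and 4.01% lower. Their median was -0.31 against 0.0042 over all genes, and with library-size scaling it was 0.025 against 0.34. Those called were the growth factor receptor Egfr (-1.31 ± 0.33), the cytokine signalling inhibitor Socs3 (-1.23 ± 0.25) and the hepatocyte factor Onecut1 (-0.90 ± 0.27; edgeR adjusted p = 0.00993, 0.00258 and 0.0284). With the pair of CCl4 sections rich in Y-linked transcripts, 2 of 20 were lower, where 4.67% of all genes were: Egfr (-0.90 ± 0.21, edgeR adjusted p = 0.0413) and the cytokine signalling inhibitor Socs2 (-1.18 ± 0.19, edgeR adjusted p = 0.0158). The calls of Socs3 and Onecut1 were lost there (edgeR adjusted p = 0.343 and 0.133). Socs3 was at 48.6 CPM in the healthy section, 19.7 and 31.9 CPM in fibrotic replicates 1 and 2 and 59.4 CPM in the Hk2-deleted section, above healthy. Onecut1 was below healthy in every CCl4 section, at 210 CPM against 124, 158 and 73.0 CPM in the same order. In the Hk2-deleted section alone against healthy, the log2 difference of Onecut1 was -1.91. In the same contrast Socs2 was at -1.26, the STAT5-induced inhibitor Cish at -2.34 and the repressor Bcl6 at 2.24. Of the 20 genes, 15 were below 0 there and 5 above. The median of the 20 genes there was -0.25 against 0.026 over all genes. The receptor Ghr was at 678 CPM in the healthy section, 502 and 563 CPM in fibrotic replicates 1 and 2 and 585 CPM in the Hk2-deleted section (edgeR adjusted p = 0.226). The hormone target Igf1 was at 714, 968, 964 and 772 CPM and Stat5b at 47.6, 57.8, 47.0 and 60.2 CPM in the same order, and neither was called (edgeR adjusted p = 0.891 and 0.564).

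Between the Hk2-deleted and the fibrotic sections, 2 genes of this list were called, against a background of 0.142% higher and 0.085% lower. Bcl6, a repressor that binds many STAT5 sites of male liver, was at 104 CPM in the Hk2-deleted section against 25.9 and 30.2 CPM in fibrotic replicates 1 and 2 and 16.8 CPM in the healthy section (log2 1.83 ± 0.21, edgeR adjusted p = 0.00021). Cish, an inhibitor of cytokine signalling induced by STAT5, was at 13.7 CPM against 41.8 and 56.9 CPM and 53.0 CPM (log2 -1.92 ± 0.26, edgeR adjusted p = 0.00135). The growth hormone target Socs2 was at 3.27, 5.63, 3.33 and 6.00 CPM in the same order and was not called (edgeR adjusted p = 1.00). The Hk2-deleted group is 1 mouse, which stood apart for Bcl6 and Cish and not for the Mup genes.

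Genes known to be male-biased in liver were mostly lower in the CCl4 sections. Of 27 on the list, 23 were tested, and 16 were lower and 1 higher in fibrotic than in healthy sections, where 4.01% of all genes were lower (13.7% in either direction); the median was -1.40 against 0.0042. Hsd3b5, a steroid-metabolising enzyme, was at 24.7 CPM in the healthy section, 0.0593 and 0.197 CPM in fibrotic replicates 1 and 2 and 0.0614 CPM in the Hk2-deleted section (log2 -8.08 ± 0.36). The organic anion transporter Slco1a1 was at 218, 2.65, 8.94 and 1.67 CPM in the same order. Susd4, a complement regulator, was at 64.2, 2.02, 3.01 and 2.29 CPM, and the fatty acid elongase Elovl3 at 4.83, 0.0445, 0.0986 and 0 CPM. All 4 were called lower (edgeR adjusted p at most 3.34e-07).

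Female-biased genes moved the other way, and here fibrotic replicate 1 led. Of 32 on the list, 25 were tested, with 16 higher and 2 lower in fibrotic than in healthy sections, where 9.64% of all genes were higher, and a median of 1.63. Their summed level was 939 CPM in fibrotic replicate 1 against 334 CPM in the healthy section, 413 CPM in fibrotic replicate 2 and 513 CPM in the Hk2-deleted section. A1bg was at 17.2 CPM in fibrotic replicate 1 and at 0.0555, 0.172 and 0.568 CPM in the others in the same order. The neurotrophin receptor Ntrk2 was at 17.6, 0.592, 4.76 and 5.89 CPM, above healthy in every CCl4 section.

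With only the pair of CCl4 sections rich in Y-linked transcripts set against healthy, 11 of 23 male-biased genes were lower and 0 higher (background 4.67% lower), and 9 of 25 female-biased genes were higher and 3 lower (background 8.45% higher, 13.1% in either direction). In the Hk2-deleted section alone against healthy, 17 of 23 male-biased genes were lower (background 2.84%) and 6 of 25 female-biased genes higher (background 6.83%). The summed male-biased level was 16962 CPM in the healthy section, 3685 CPM in fibrotic replicate 1, 7361 CPM in fibrotic replicate 2 and 3299 CPM in the Hk2-deleted section. Fibrotic replicate 1, with its low Y-linked transcripts, had the highest female-biased sum and the lowest Mup10 and Mup17 levels. In the Hk2-deleted section, where Eif2s3y was at 63.2 CPM, the male-biased sum was lower still and the interval of Mup11 overlapped that of fibrotic replicate 1. Lower levels of Mup10, Mup11 and Mup17 were also measured in both CCl4 sections with Y-linked transcripts. Many markers of other cell types were higher in the fibrotic than in the healthy sections. There edgeR called 9 of 14 leukocyte, 6 of 10 cholangiocyte, 6 of 12 stellate cell, 6 of 14 macrophage and 1 of 12 endothelial genes higher, and 1 macrophage gene lower; 1 cholangiocyte gene was at 0 in the healthy section. The summed leukocyte level was 158 CPM in the healthy section and 814 to 1190.1 CPM in the CCl4 sections, the macrophage level 1405 against 2190 to 3054 CPM, the stellate level 607 against 957 to 1196 CPM, the cholangiocyte level 106 against 293 to 357 CPM, and the endothelial level 765 against 997 to 1049 CPM. Their part in the lower Mup and male-biased levels was not tested.

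Of the 36 plasma protein genes, abundant hepatocyte products without sex bias as the criterion, 0 were called in the fibrotic contrast. Of all genes 13.7% were called there. The plasma protein median was -0.29 against 0.0042 over all genes, and with library-size scaling 0.035 against 0.34. The SE was wide for Alb (-0.62 ± 1.66) and Apoc1 (-0.27 ± 1.01), so 0 calls do not show unchanged levels. DESeq2 called 3 of 36 lower, library-size scaling 5 higher and 1 lower, and plasma protein scaling 8 higher. Calls over all genes in these settings are given in the last section.

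**Figure D5:**
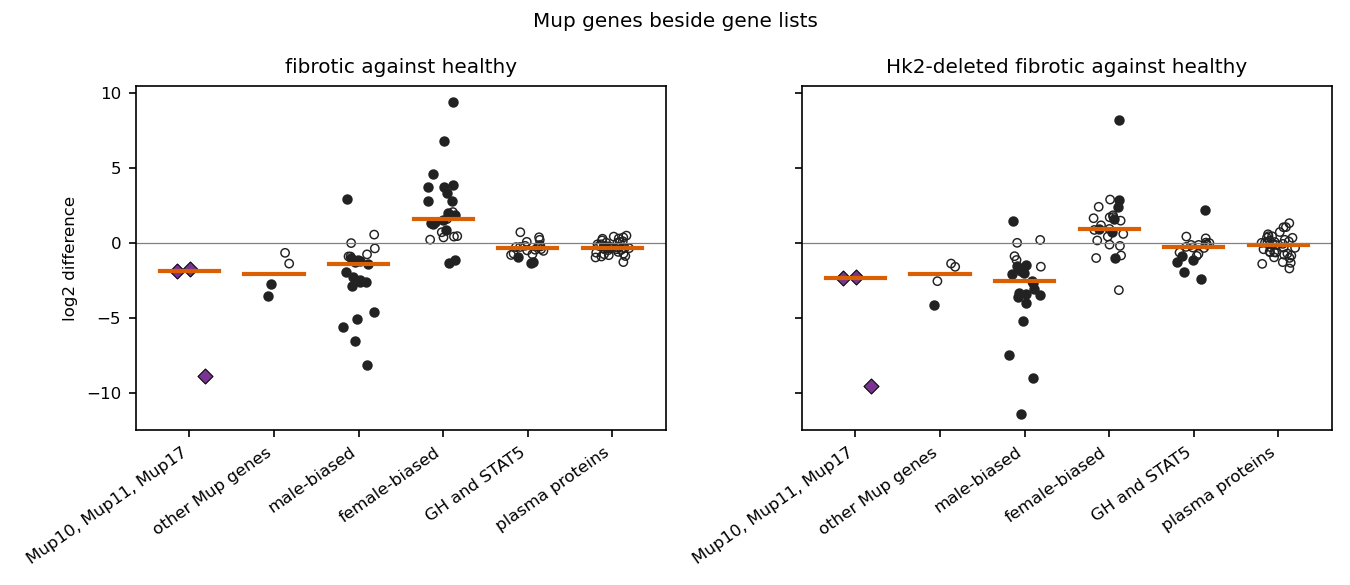
Log2 differences from the healthy section for the fibrotic group (left) and the Hk2-deleted section (right); each point is a gene, diamonds are Mup10, Mup11 and Mup17, filled circles are genes with an edgeR adjusted p under 0.05, open circles are not called, and lines are medians. Male-biased genes lie mostly below 0 (medians -1.40 and -2.47), plasma protein genes around it (-0.29 and -0.08).

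Over the 12 sums of section by zone class, the 5 genes whose log2(CPM + 1) was most like the summed level of Mup10, Mup11 and Mup17, among 8082 genes at 10 or more CPM over all sums, were Ell2 (r = 0.980), Hsd3b3 (0.975), Bet1 (0.971), Nudt7 (0.971) and Cyp7b1 (0.970). These 12 points share 4 libraries and their depth, and 3 of them carry the healthy level. Cyp7b1, an oxysterol hydroxylase, was at 207 CPM in the healthy section, 17.8 and 67.2 CPM in fibrotic replicates 1 and 2 and 26.6 CPM in the Hk2-deleted section. Nudt7, a peroxisomal coenzyme A hydrolase, was at 1159, 239, 514 and 374 CPM in the same order. These genes were picked for this likeness, so their order of sections is no separate result. Hsd3b3 was at 228, 176, 188 and 175 CPM in the same order, with the Hk2-deleted section lowest.

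Over the 3064 spots of the healthy section, the genes most like that sum, among 2124 with a mean of at least 1 UMI per spot, were the apolipoprotein Apoc1 (r = 0.709), Cyp2e1 (0.704), the apolipoprotein Apoa2 (0.685), the cytochrome P450 Cyp2c29 (0.678) and the paraoxonase Pon1 (0.619). Spots share 1 library, and their depth differs. Cyp2e1 was at 7428 CPM in the healthy section and 3480 to 3887 CPM in the CCl4 sections, and Apoc1 at 21531 against 20052 to 24562 CPM, so a like pattern across healthy spots went with unlike changes between sections. Among the Mup genes, r over healthy spots was 0.50 for Mup11 and Mup17, 0.32 for Mup10 and Mup17 and 0.25 for Mup10 and Mup11. Mup3 ran with albumin (r = 0.84), to which Mup17 ran opposite (r = -0.48).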

How the data were processed

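Mup transcripts were measured by Visium in 4 FFPE mouse liver sections, each from a separate mouse. The deposited matrices hold UMI counts by gene and spot, produced by the authors with Space Ranger 2.0.0, per the file headers. Per the submitters' processing notes the build was mm10. No source used here gives the probe set. The deposited Moran's I, a spatial score per gene, is the authors' own.

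Counts were summed per section, zone class or spot class and fitted with edgeR 4.0.16 (R 4.3.3): TMM scaling, filterByExpr, quasi-likelihood test, Benjamini-Hochberg adjustment over all genes and a threshold of 0.05. The fibrotic pair gave the only residual degree of freedom of the whole-section fit, so lone sections were assumed to vary like it. P-values cover the spread between these sections. Intervals are exact, at 95%, and cover counting error only.

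Members and gene lists were chosen with earlier results of these data known. Other genes were named by rule: every Mup gene, up to 4 called genes per list with the largest change, 6 set growth hormone pathway genes and the genes most alike the members. The landmark lists held 9 pericentral and 12 periportal genes, and the collagen list 3 genes; these are left out of the background counts of their own contrasts. The 4 libraries shared 1710 spot barcodes, which name array positions. The fits were tested on simulated data. Alternatives covered scaling, filter, tool, spot weighting, zone split, collagen cut, spot depth and leaving out sections.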

Additional observations from a re-analysis of the deposited data

Results flagged for a closer look

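Mup10 and Mup17 were higher toward the central vein in the healthy section and flat or lower there in the CCl4 sections. The log2 ratio of the pericentral to the periportal class of spots was 0.68 and 1.00 in the healthy section. It was below 0 in each of the 3 CCl4 sections (-0.59 to -0.28 for Mup10 and -0.44 to -0.04 for Mup17). For Mup17 in the Hk2-deleted section its interval, -0.090 to 0.014, took in 0. This difference was not tested for these genes, and for Mup17 the sign in fibrotic replicate 2 and the Hk2-deleted section depends on the denominator. For Mup3 and Mup20 the difference between CCl4 and healthy zone contrasts was tested with edgeR and was -0.51 and 0.75. The healthy group is 1 section.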

How the results depend on the processing

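In every setting run, Mup10, Mup11 and Mup17 were lower in the fibrotic than in the healthy sections. Without 1 fibrotic section, the log2 differences ranged from -2.58 to -1.15 for Mup10, from -9.49 to -8.32 for Mup11, from -2.64 to -1.34 for Mup17, and for Mup20 from -2.75 to 0.20. Without 1 fibrotic section the Hk2 deletion values ranged from -1.08 to 0.35, -1.17 to -0.02 and -0.95 to 0.34 for Mup10, Mup11 and Mup17. Mup11 differed from healthy by -8.36 (fibrotic) and -8.81 (Hk2-deleted) when scaled by plasma protein UMIs, and by -8.11 and -8.45 with limma on mean spot CPM. Without 1 section, zone profile values ranged from -0.64 to -0.17 for Mup10, 0.06 to 0.82 for Mup11 and -0.44 to 0.089 for Mup17, and with library-size scaling Mup10 had -0.12. Without 1 CCl4 section, the zone-by-CCl4 values ranged from -1.26 to -1.12 for Mup10, -1.26 to -0.57 for Mup11 and -1.43 to -1.21 for Mup17. With the outer 20% of spots on each side they were -1.53 for Mup10 and -1.62 for Mup17, and without collagen-high spots -1.04 for Mup10. Collagen values without 1 CCl4 section ranged from -0.97 to -0.87, -0.95 to -0.71 and -0.93 to -0.67. For Mup10 the collagen value was -1.15 at the top 5% and -0.70 at the top 20% of spots, -0.70 and -0.54 within the pericentral and periportal classes, -0.30 scaled by plasma protein UMIs and -0.60 by library size. For Mup11 it was -0.49 at the top 5%, -6.91 within the periportal class, -0.23 and -0.53 with those scalings, and for Mup17 -0.18 and -0.49. Mup11 was found in 98.2%, 1.49%, 2.40% and 1.18% of spots thinned to 8000 UMIs (healthy, fibrotic 1 and 2, Hk2-deleted). The count of genes higher and lower in fibrotic sections, 1362 and 567, was 1878 and 206 with library size, 3329 and 147 with plasma protein UMIs, 737 and 297 with DESeq2 and 1623 and 204 with limma. For the Hk2-deleted against the healthy section, 965 and 401 became 1611 and 196, 4826 and 119, 432 and 277, and 1318 and 186 in that order. For Hk2 deletion, 20 and 12 became 63 and 50 with library size, 95 and 36 with plasma protein UMIs, 69 and 57 with no filter and 11 and 10 with DESeq2. At an unadjusted p under 0.05, edgeR gave 224 genes higher and 219 lower there, and DESeq2 85 and 126. Zone and collagen counts also moved: 756 and 662 became 3907 and 372 for zone, and 2929 and 2963 became 7409 and 685 for collagen, with library size. Where not shown by a setting's own construction, the cause was not tested. No paired analysis was possible because only the fibrotic group has 2 sections and the groups share only replicate number 1. With 94 to 119 Mup11 UMIs in each CCl4 section, depth limits its zone and collagen profiles.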
